A study of Mus musculus with 38 samples.

Results

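The genes described here encode 10 antioxidant enzymes: the glutathione peroxidases Gpx1, Gpx2, Gpx3 and Gpx4, sulfiredoxin (Srxn1), the superoxide dismutases Sod1, Sod2 and Sod3, catalase (Cat) and haem oxygenase 1 (Hmox1). They were chosen by gene symbol in the platform annotation, with earlier results of these data known, and they account for 10 of 19087 named genes and for 23 of 45220 array features. All 10 were measured: Sod1 on 12 features, Srxn1 on 3 and each of the others on 1. RNA came from small vessels of the mouse lung, cut out of 10 µm cryosections by laser microdissection under optical control, with an outer diameter of 50 to 100 µm. All mice were C57BL/6J, 12 to 18 weeks old, and carried no genetic change that the labels name. Normoxia was 21 days at an inspired oxygen fraction of 0.21 (8 mice), and hypoxia was 21 days at a fraction of 0.10 (23 mice). The remaining mice had the same hypoxia and then breathed normoxic air for 1 day (11 mice), 3 days (12 mice), 7 days (12 mice) or 14 days (10 mice). Mice are counted as array channels, because the labels used here identify no single animal.

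Superoxide dismutases turn superoxide into hydrogen peroxide, which catalase and the glutathione peroxidases then remove. Gpx1 acts mainly in the cytosol and mitochondria, Gpx2 is best known from epithelia of the gut, Gpx3 is the secreted form found in plasma and the extracellular space, and Gpx4 reduces lipid peroxides in membranes. Sod1 is the cytosolic, Sod2 the mitochondrial and Sod3 the extracellular dismutase, the last being abundant in vessel walls. Sulfiredoxin restores peroxiredoxins that have been overoxidised, and haem oxygenase 1 breaks down haem. Srxn1 and Hmox1 are well known targets of the transcription factor Nrf2, which binds antioxidant response elements, and chronic hypoxia is widely used in mice to bring about remodelling of lung vessels.

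Promoters are shown for Gpx3 and Gpx2, the members with the highest log ratio of hypoxia over normoxia, and for Srxn1, the member with the lowest. Each runs 5′ to 3′ on the gene's strand from 250 bases before the start of the gene to 50 after it (RefSeq, GRCm38.p6). Capitals mark matches on either strand to the core of the antioxidant response element, TGACNNNGC, or to the hypoxia response element cores ACGTG and GCGTG. The Gpx3 promoter is at chr11:54902604-54902903 on the plus strand, the Gpx2 promoter at chr12:76795505-76795804 on the minus strand, and the Srxn1 promoter at chr2:152105274-152105573 on the plus strand.
Gpx3: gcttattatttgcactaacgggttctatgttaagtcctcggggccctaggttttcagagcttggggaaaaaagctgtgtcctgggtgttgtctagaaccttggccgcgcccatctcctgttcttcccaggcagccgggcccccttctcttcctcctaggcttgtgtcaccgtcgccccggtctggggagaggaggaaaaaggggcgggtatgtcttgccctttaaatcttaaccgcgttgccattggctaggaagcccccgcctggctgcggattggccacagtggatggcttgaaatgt
Gpx2: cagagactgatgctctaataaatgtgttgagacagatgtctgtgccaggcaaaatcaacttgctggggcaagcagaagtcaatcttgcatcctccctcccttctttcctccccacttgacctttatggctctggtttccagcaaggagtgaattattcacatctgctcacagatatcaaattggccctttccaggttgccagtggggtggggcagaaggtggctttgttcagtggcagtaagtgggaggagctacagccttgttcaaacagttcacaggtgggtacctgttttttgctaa
Srxn1: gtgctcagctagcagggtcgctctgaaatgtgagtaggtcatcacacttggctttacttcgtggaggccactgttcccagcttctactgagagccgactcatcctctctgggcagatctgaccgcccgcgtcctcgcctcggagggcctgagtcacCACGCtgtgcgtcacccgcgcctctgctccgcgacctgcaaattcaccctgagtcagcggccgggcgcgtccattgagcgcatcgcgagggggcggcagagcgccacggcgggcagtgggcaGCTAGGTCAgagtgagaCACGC
The Gpx3 and Gpx2 windows held none of the 3 motifs. The Srxn1 window held 1 match to TGACNNNGC, on the reverse strand, and 2 matches to GCGTG, also on the reverse strand. Of 32851 promoters of this length, 12.4% held TGACNNNGC, 19.6% held ACGTG and 32.4% held GCGTG, so that 43.8% held at least 1 of the hypoxia cores. Such matches describe the sequence only and are not evidence of binding.

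Each of 38 arrays carried the RNA of 2 mice, labelled with Cy3 and Cy5, and the deposited value of a feature is the log ratio of both channels. The base of the logarithm and the direction are not stated in the sources used here. The values were read as log10 ratios of Cy5 over Cy3, the usual convention, and a turned direction would reverse every sign below. Log ratios hold no level, so that genes could not be ranked by abundance and the presence of vessel markers could not be checked. Condition differences are given as the log ratio ± SE of a limma fit over all 38 arrays, and array values as the ratio on the arrays that carried both conditions, turned to 1 direction. Array SDs ran from 0.0742 to 0.192, the highest on an array of day 3 (Cy3) against day 7 (Cy5). Arrays of the same kind correlated between -0.0246 and 0.549 over all entries, and none under -0.3. In these bulk samples, fewer cells of a type and less RNA per cell cannot be told apart.

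Gpx3 stood furthest from 0 among the 10 genes when hypoxia was set against normoxia. On the 8 arrays that carried both conditions, its log ratio was 0.105, 0.300, 0.282 and 0.206 with hypoxia in Cy5, and 0.248, 0.112, 0.207 and 0.0916 with hypoxia in Cy3. All 8 arrays had the hypoxic animal higher, in both dye orientations. The fit gave 0.194 ± 0.0287 for Gpx3, which is 1.56-fold if the values are log10 and 1.14-fold if they are log2. This placed Gpx3 at rank 33 among the 19087 named genes, counted from the highest log ratio, and at rank 19055 if the direction is turned. The genes were chosen with this comparison in view, so these values are a description and carry no test.

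Gpx2 was the second highest member, at 0.0982 ± 0.0271, which is 1.25-fold on a log10 reading and 1.07-fold on a log2 reading. Its 8 arrays ran from 0.00406 through a median of 0.0913 to 0.177, all with hypoxia higher. The lowest value lay next to 0, and the highest did not reach the median of Gpx3. Gpx1, the most widely expressed peroxidase, had the opposite sign on all 8 arrays, from -0.0812 through -0.0311 to -0.00814. Its fitted log ratio was -0.0404 ± 0.0438, smaller than its SE, and 6 of the 8 arrays stayed negative once the dye effect was removed. Gpx4 stood at -0.00165 ± 0.0343, with a 95% confidence interval from -0.0713 to 0.0680. Of the peroxidases, Gpx3 and Gpx2 thus lay above 0. The 95% confidence interval of Gpx1 ran from -0.129 to 0.0485, so that the intervals of Gpx1 and Gpx4 both included 0.

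Srxn1 had the lowest log ratio of the 10 genes in hypoxia minus normoxia, -0.0720 ± 0.0340, with 6 of 8 arrays negative. The arrays ran from -0.392 through a median of -0.0320 to 0.0396. The array at -0.392, the third with hypoxia in Cy5, lay far below the next lowest at -0.127, and without it the fitted value was -0.0276. Hmox1, also known for its induction by Nrf2, stood at 0.00868 ± 0.0205, with a 95% confidence interval from -0.0330 to 0.0504. Its arrays ran from -0.0609 to 0.105 and were split, 4 above and 4 below 0.

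The superoxide dismutases and catalase lay closer to 0 than Gpx3 and Gpx2. Sod2 was at 0.0584 ± 0.0294, and its arrays ran from -0.0704 through 0.0596 to 0.196, 6 of 8 above 0. Cat was at 0.0441 ± 0.0278, and its arrays ran from -0.158 to 0.245, the highest being the first array with hypoxia in Cy3. Leaving out single arrays took Cat from 0.0157, without that array, to 0.0727, without the array at -0.158. Sod2 was 0.0361 without its highest array. For both genes the arrays with hypoxia in Cy3 were all above 0, while those with hypoxia in Cy5 were split. Sod1 was at 0.0461 ± 0.0352, with 6 of 8 arrays above 0. Sod3 was at -0.0159 ± 0.0496, the widest error of the 10, with arrays from -0.294 to 0.259 and 5 of 8 above 0.

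**Figure D1:**
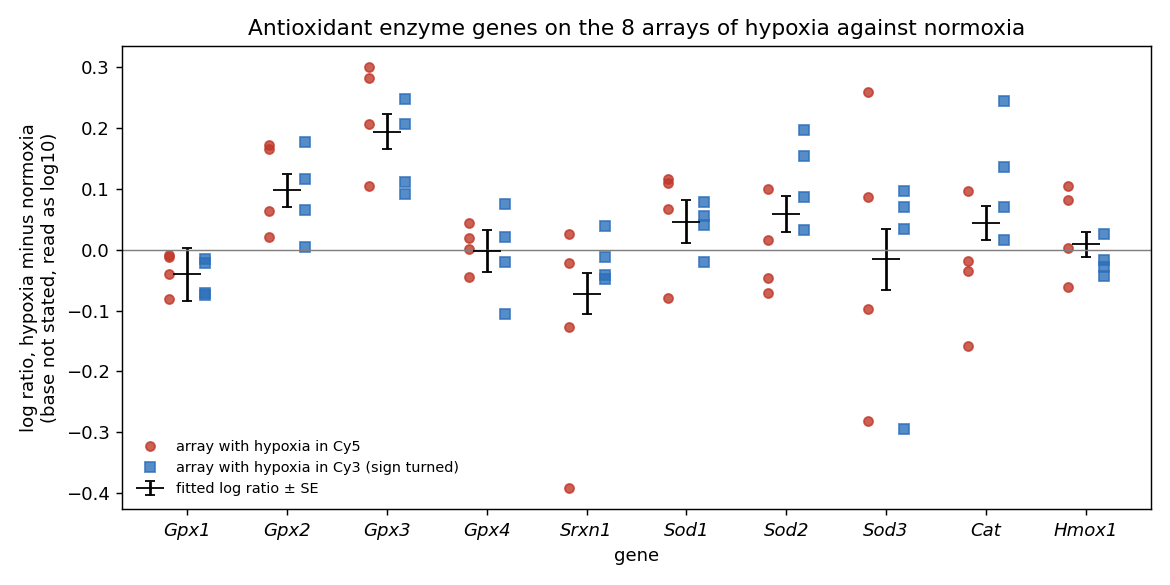
Log ratio of hypoxia minus normoxia for each gene on the 8 arrays that carried both conditions (red circles, hypoxia in Cy5; blue squares, hypoxia in Cy3 with the sign turned), with the fitted value ± SE as a black bar. All 8 points of Gpx3 lie between 0.0916 and 0.300 and all 8 of Gpx1 below 0, while 1 point of Srxn1 lies at -0.392.

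Of the 10 members, 6 had a higher and 4 a lower log ratio in hypoxia, with a median of 0.0264 beside a median of -0.00397 over all 30653 entries. Past an adjusted p of 0.05 (limma, Benjamini-Hochberg over all entries) stood 2 members, Gpx3 and Gpx2, both higher, where 3.6% of all entries were called in either direction, 1.35% as higher and 2.25% as lower. Nothing is read from that count, because the same comparison was in view when the genes were chosen. Gpx3 was past the threshold in each of the 38 fits that left out 1 array. Gpx2 was past it in 33 of them, and was lost without 3 of the 4 arrays with hypoxia in Cy3 and without 2 of the 4 with hypoxia in Cy5, each left out alone.

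Markers of the lung's alveoli, the air sacs around these vessels, were higher in hypoxia as well. All 13 of 13 type 2 cell markers had a higher log ratio, 6 of them past the threshold, with a median of 0.0967. Of 13 type 1 cell markers 12 were higher, 5 past the threshold, with a median of 0.105. The mean log ratio of these 26 markers lay between 0.0435 and 0.143 on the 8 arrays, with hypoxia higher on all of them. Smooth muscle markers went the other way, 8 of 9 lower and 5 past the threshold, with a median of -0.103. Endothelial markers had 7 of 9 higher, with 2 past the threshold as higher and 1 as lower, and a median of 0.0554. Fibroblast markers had 6 of 7 lower, 1 past the threshold, with a median of -0.0516. Airway epithelium markers had 5 of 6 higher, none past the threshold, with a median of 0.0402.

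Among the 10 genes, Gpx3 followed this alveolar mean most closely. Over the 38 arrays Pearson's r was 0.844 and Spearman's rho 0.849, and r was 0.796 without the 2 arrays farthest out on the marker mean. Over the 30 arrays without a normoxia animal r was 0.686 and rho 0.741. These are descriptions over arrays that share conditions and vessels, and marker and gene were read from the same RNA. The means of the other marker lists were not set against the genes in this way. With the marker mean as a covariate in the fit, hypoxia minus normoxia for Gpx3 was 0.0785 ± 0.0361, and neither Gpx3 nor Gpx2 passed the threshold. Nearly all calls over the whole array were lost in that fit as well, with the counts given in the last section. For Gpx2, whose r with the marker mean was 0.486, the value was 0.0988 ± 0.0421, close to that without the covariate but with a wider error. Gpx1 moved from -0.0404 to -0.216 and Sod1 from 0.0461 to 0.129 under the covariate, neither past the threshold. The array with the highest SD, of day 3 (Cy3) against day 7 (Cy5), had a marker mean of -0.118. It gave -0.664 for Gpx1 and 0.403 for Sod1, and its weight in these fits was not tested.

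**Figure D2:**
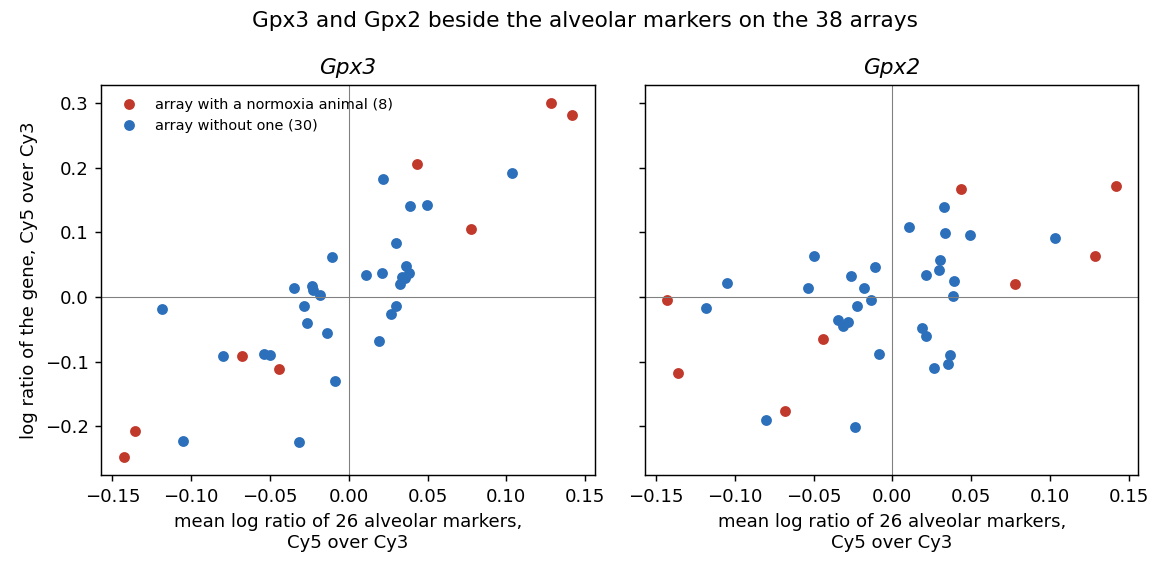
Log ratio of Gpx3 (left) and Gpx2 (right), Cy5 over Cy3, against the mean log ratio of 26 alveolar markers, 1 point per array; red points are the 8 arrays with a normoxia animal and blue points the 30 without. The Gpx3 points follow the marker mean (r = 0.844), the Gpx2 points less closely (r = 0.486).

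After the return to normoxia, none of the 10 genes passed the threshold against hypoxia on any day (limma, adjusted over all 30653 entries). The counts were 0 of 10 at day 1, 3, 7 and 14, where 0%, 0.013%, 0.0163% and 0% of all entries were called. The whole array had next to no calls in these comparisons. At an unadjusted p under 0.05 there were 2, 1, 2 and 1 members of 10, beside 3.97%, 9.22%, 6.48% and 4.03% of all entries.

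Gpx3 had a lower log ratio than hypoxia at all 4 times without passing the adjusted threshold. The direct arrays of day 1 gave -0.223, -0.183, -0.0838 and -0.0623, all below hypoxia. Those of day 3 gave 0.0287, 0.0103, -0.0303 and -0.141, and those of day 7 gave -0.0367, -0.192, 0.0174 and -0.0912. The 3 arrays of day 14, all with hypoxia in Cy3, gave -0.225, -0.0878 and 0.0339. Day 1 was thus the only time at which all direct arrays had the same sign. The fit, which also uses the arrays between days, gave -0.0739 ± 0.0287 at day 1 (adjusted p = 1.00), -0.0784 ± 0.0279 at day 3 (adjusted p = 0.368), -0.0941 ± 0.0281 at day 7 (adjusted p = 0.506) and -0.0967 ± 0.0307 at day 14 (adjusted p = 1.00). The 95% confidence interval at day 14 ran from -0.159 to -0.0345.

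No array paired normoxia with the later days. Relative to normoxia, Gpx3 stood at 0.120 ± 0.0405, 0.116 ± 0.0400, 0.0999 ± 0.0402 and 0.0973 ± 0.0420 at days 1, 3, 7 and 14, beside 0.194 in hypoxia. These values share the hypoxia and normoxia arrays and are a description. Of the 10 members, 0 were past the threshold against normoxia on each of the 4 days, where 0.111%, 0.783%, 0.0228% and 0.0261% of entries were called, and 2, 1, 1 and 1 members of 10 had an unadjusted p under 0.05, beside 11.4%, 14.3%, 8.50% and 8.79% of all entries. No alveolar marker passed the threshold against hypoxia on any of these days. Type 1 markers had medians of -0.0201, -0.0153, -0.0592 and -0.0407, with 12, 11, 13 and 12 of 13 below 0. Type 2 markers had medians of -0.00849, -0.0176, -0.0361 and -0.0365, with 8, 10, 13 and 10 of 13 below 0, and on the direct arrays of day 3 their mean was above 0 on 2 of 4. Airway epithelium markers had medians of 0.0540, 0.0239, 0.0426 and 0.0406, with 6, 4, 4 and 5 of 6 above 0 and none past the threshold. Fibroblast markers had medians of -0.0185, -0.00617, -0.0789 and -0.0591, with 5, 4, 6 and 6 of 7 below 0. For smooth muscle markers the medians were -0.0424, -0.0200, -0.0296 and -0.0272, with 8, 6, 7 and 6 of 9 below 0. Endothelial medians ran from -0.0253 to 0.0105. No marker of these lists passed the threshold. Red cell markers were further from 0, with medians of -0.116, -0.179, -0.366 and -0.137 and 5, 5, 4 and 4 of 5 below 0. At day 7, 3 of them passed the threshold as lower, and on the other days none did. Their mean was below 0 on all direct arrays of days 3 and 7, and above 0 on 1 array each of days 1 and 14. The part of red cell RNA in the members' values was not tested. With the alveolar marker mean as a covariate, Gpx3 minus hypoxia was -0.0498, -0.0442, -0.0321 and -0.0572 on the 4 days. Relative to normoxia, Gpx3 in that fit was 0.0287, 0.0343, 0.0464 and 0.0213, beside 0.0785 in hypoxia.

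The fitted value of Gpx2 also lay below hypoxia on each day, furthest at day 7 with -0.0677 ± 0.0266 (adjusted p = 0.661). The direct arrays of day 7 gave 0.0606, -0.0914, -0.201 and -0.190, so that 1 array had the opposite sign. At days 1, 3 and 14 the fit gave -0.0285, -0.0463 and -0.0376. At day 14 the direct arrays gave -0.0442, 0.0132 and 0.109, with a mean of 0.0260, opposite in sign to the fit. All 3 of these arrays had hypoxia in Cy3. The fitted dye effect of Gpx2 was -0.000909, and with it removed the arrays ran from -0.0433 to 0.110. Why the direct arrays and the fit differ was not tested. Gpx1 and Gpx4 took both signs, Gpx1 between -0.0321 and 0.0526 and Gpx4 between -0.0133 and 0.0199. The direct day 3 arrays of Gpx1 gave 0.302, -0.0608, -0.0159 and 0.0350, so that 1 array stood far above the others. The fitted day 3 value of 0.0526 became 0.0154 without that array. It became 0.00852 without an array of day 3 (Cy3) against day 7 (Cy5) that enters the fit indirectly.

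Srxn1 had the largest value above hypoxia, at day 1. Its direct arrays gave 0.156, 0.161, 0.0417 and 0.122, all above 0, and the fit gave 0.0966 ± 0.0340 (adjusted p = 1.00, unadjusted p = 0.00740). At days 3, 7 and 14 the fitted log ratio was 0.0585, 0.0184 and 0.0225. The 4 day 3 arrays were split, at 0.0375, -0.169, -0.0553 and 0.0612, and gave -0.0314 when fitted alone, while all 4 arrays of day 7 and all 3 of day 14 were above 0. The fitted value of Hmox1 was slightly above hypoxia on each day, at 0.0131, 0.0216, 0.0347 and 0.0232, with its lowest adjusted p, 0.775, at day 3. The direct arrays of day 3 were split, at 0.0152, -0.0510, -0.0648 and 0.0317, with a mean of -0.0172.

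The dismutases and catalase followed no common course. Sod3 lay below hypoxia at all times, by -0.0358, -0.0873, -0.0577 and -0.0927, with SEs from 0.0482 to 0.0531, and the lowest adjusted p was 0.597. Its day 3 value included an array at -0.441, beside 0.0255, -0.138 and -0.0187 on the other arrays. The fitted value of Sod2 ran from -0.0234 at day 3 to 0.0129 at day 7, where the 4 direct arrays had a mean of -0.0317. At day 14 it was 0.00571, while the 3 direct arrays were all above 0, at 0.0619, 0.0580 and 0.188, again with hypoxia in Cy3 on each. The fitted value of Cat ran from -0.00230 at day 3 to 0.0432 at day 1. Sod1 was at -0.0542, -0.0557, 0.0437 and -0.0130, and at day 7 the fitted value and the direct arrays differed in sign: the 4 arrays gave -0.128, -0.00775, -0.0253 and -0.0482.

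Between successive days 0 of 10 members passed in day 3 minus day 1, day 7 minus day 3, day 14 minus day 7 and day 14 minus day 1, where 0%, 0.00979%, 0% and 0% of entries were called. At an unadjusted p under 0.05 there were 0, 1, 0 and 0 members of 10, beside 4.63%, 10.2%, 3.66% and 2.79% of all entries. The 1 member was Sod1 in day 7 minus day 3, with arrays at 0.114, 0.403, -0.00432 and 0.307 and a fitted value of 0.0994 ± 0.0366 (adjusted p = 0.358), which was 0.0546 without the array at 0.403. In the same comparison Gpx1 stood at -0.0846 ± 0.0456, but 1 array gave -0.664 and the others 0.0334, 0.0502 and 0.0155, and without that array the fitted value was 0.00282.

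**Figure D3:**
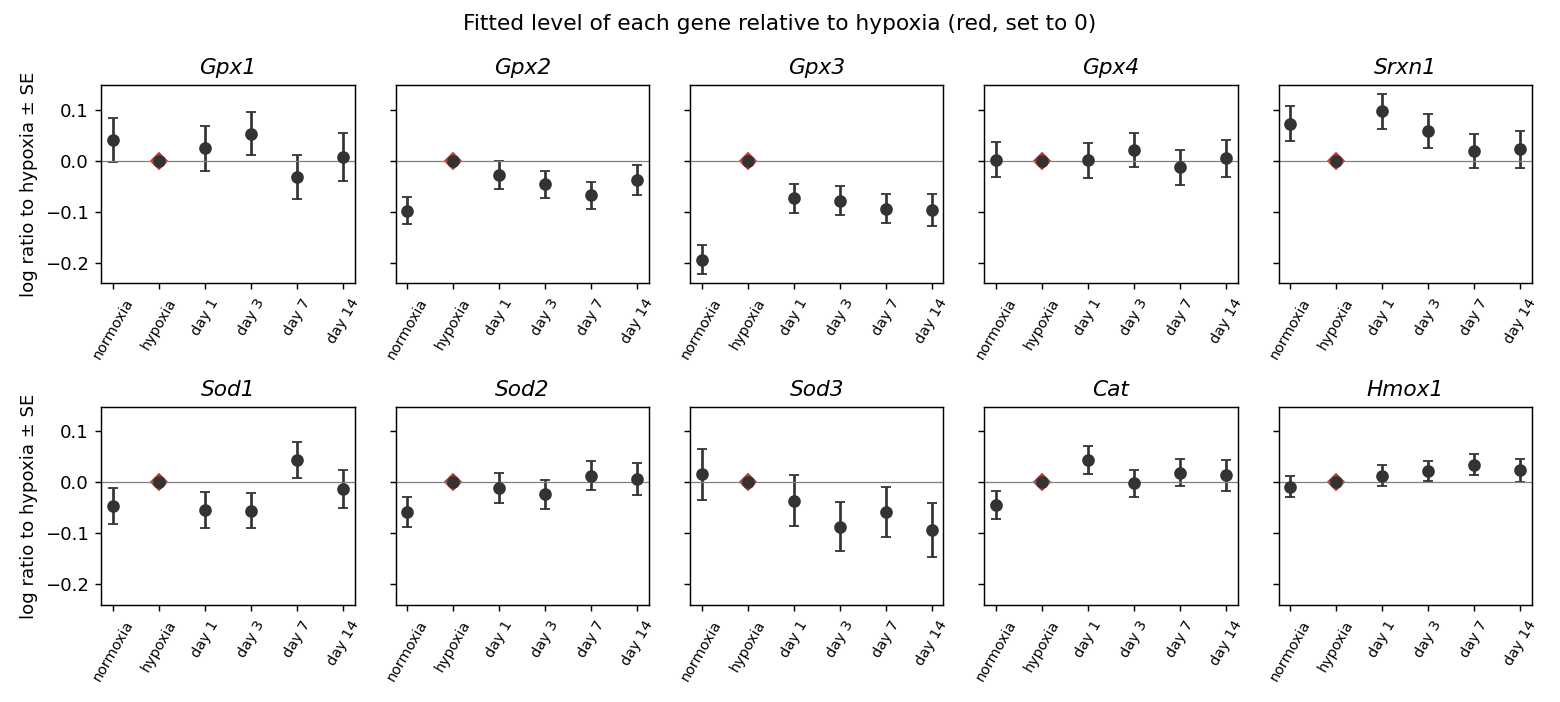
Fitted log ratio of each gene to hypoxia (set to 0, red) in normoxia and at 1, 3, 7 and 14 days after the return, with SE as bars. Gpx3 lies lowest in normoxia and between -0.0739 and -0.0967 on all 4 days, and Srxn1 lies highest at day 1 with 0.0966.

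Sod1 and Srxn1 were measured on several features that did not all move together. For Sod1, 11 features belong to a single cDNA accession, and 10 of these correlated with each other at 0.937 or more over the arrays, while 1 had a median r of 0.107 with them. The twelfth feature, from the RefSeq accession, was above 0 on 8 of 8 arrays of hypoxia against normoxia, from 0.0242 through 0.0872 to 0.139. Its fitted value was 0.0861 ± 0.0154, beside 0.0178 to 0.0556 for the other 11. The day 7 minus day 3 log ratio was 0.108 to 0.130 on the 10 features that correlated, 0.0308 ± 0.0160 on the RefSeq feature and -0.0320 on the remaining one. The mean used for Sod1 is therefore mostly that of the 10 repeated features, and which feature measures the transcript was not tested.

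For Srxn1 the 3 features come from the same accession. Hypoxia minus normoxia was 0.0149 ± 0.0442 on the first, -0.0919 ± 0.0458 on the second and -0.139 ± 0.0433 on the third. The second and the third correlated at 0.842 over the 38 arrays, and the first correlated with them at 0.154 and 0.119. The third feature was below 0 on all 8 arrays, from -0.593 to -0.0200. Day 1 minus hypoxia was alike on the 3 features, at 0.105, 0.0841 and 0.101. Day 3 minus hypoxia was 0.120, 0.0218 and 0.0343, and day 14 minus hypoxia was 0.117 on the first feature but -0.0320 and -0.0169 on the others.

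**Figure D4:**
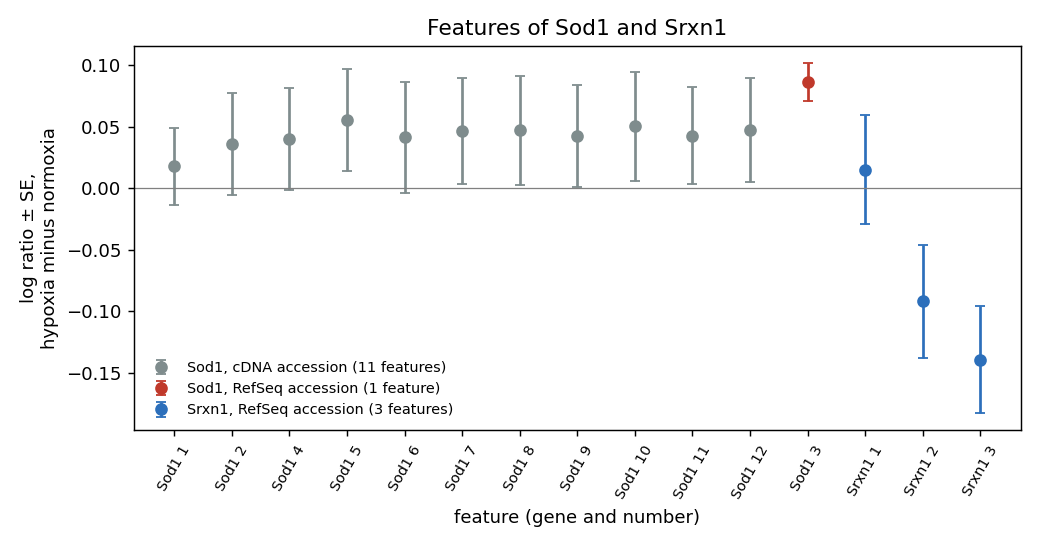
Log ratio of hypoxia minus normoxia ± SE on each of 12 Sod1 features (grey and red) and 3 Srxn1 features (blue). The red Sod1 feature has the smallest error, at 0.0861 ± 0.0154, and the Srxn1 features run from 0.0149 to -0.139.

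Residual SD, which mixes the spread between animals with that of hybridisation and features, was highest for Sod3 at 0.145, above 91.1% of named genes, and for Gpx1 at 0.128, whose values include -0.664 and 0.302 on the 2 arrays with the widest spread over all features. It was lowest for Hmox1 at 0.0570, above 21.2% of named genes. Gpx3 lay in the middle at 0.0822, beside a median of 0.0821 over all entries. No member's dye effect passed the threshold, the lowest adjusted p being 0.684 (limma).

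Correlations between members were compared over the 38 arrays. Gpx2 and Gpx3 correlated at r = 0.517 (rho 0.560), and at 0.559 without the 2 arrays farthest out on Gpx2. Over the 30 arrays without a normoxia animal r was 0.318, and after the condition and dye terms were removed it was 0.0741. Sod2 and Cat correlated at 0.569 (rho 0.505), at 0.505 without such arrays, at 0.388 over the 30 arrays, and at 0.557 after the condition and dye terms were removed. Gpx1 and Gpx4 had an r of 0.675, but rho was 0.294, and r was 0.192 without the 2 arrays farthest out, which are also the 2 with the widest spread over all features. The arrays share animals' conditions and hybridisation, and these values are descriptions, as are those for the most similar genes.

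The named genes with log ratios most like those of Gpx3 over the 38 arrays were Spaca4 (r = 0.828), Pkig (0.810) and Mfap4 (0.809), the last encoding a matrix protein of elastic fibres. Their own log ratios in hypoxia minus normoxia were 0.145, 0.135 and 0.152. For Gpx2 they were Coq8b (r = 0.909), which takes part in coenzyme Q synthesis, Antkmt (0.791) and Apoc4 (0.791). Sod2 and Cat shared Cbr2 (0.795 and 0.775) and Selenbp1 (0.745 and 0.750) among their most similar genes. Cbr2 encodes a carbonyl reductase abundant in mouse lung. For Gpx1 the most similar were Phb2 (r = 0.853, rho 0.643), Bod1 (0.835, rho 0.315) and Rab21 (0.825, rho 0.0752), where the rank correlation of Bod1 and Rab21 was far below r. For Srxn1 they were Ppp2r5b (0.644), Lin37 (0.634) and Hoxa7 (0.626), and for Gpx4 Atp5d (0.778), Tceal9 (0.774) and Gabarap (0.757). Sod1 was closest to Clcn1 (0.684), Sod3 to Arap3 (0.693) and Hmox1 to Dcps (0.676).

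Of the other genes of these pathways, 92 symbols were listed in 7 groups and 85 measured. Some selenoproteins were listed under both an old and a new symbol, and some genes stand in more than 1 group. In hypoxia minus normoxia 4 of 85 passed the threshold, all lower, which is 4.71% beside 3.6% of all entries. The groups were listed with earlier results of these data known, so their counts and adjusted p-values in this comparison are a description. The median of the 85 was 0.00432 beside -0.00397 over all entries. In day 1, 3, 7 and 14 minus hypoxia 0 of 85 passed.

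Glutathione synthesis and recycling had 11 of 18 measured genes higher and 7 lower in hypoxia minus normoxia, none past the threshold, with a median of 0.00585. This list also held further glutathione peroxidases and glutathione transferases. The smallest p belonged to the glutaredoxin Glrx3 at -0.0873 ± 0.0286 and the glutathione transferase Gsta4 at 0.120 ± 0.0413. In the thioredoxin and peroxiredoxin group 8 of 13 were higher and 5 lower, and Txnrd3, a thioredoxin reductase, fell by 0.116 ± 0.0273 (adjusted p = 0.0119, limma). Of 14 genes of the Nrf2 pathway 8 were higher and 6 lower, none past the threshold, and the smallest p was that of the small Maf protein Maff at -0.0933 ± 0.0405.

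Oxidant sources, the enzymes that make superoxide or related oxidants, had 4 of 12 higher and 8 lower with none past the threshold. Nox4, an oxidase of vessel walls that releases hydrogen peroxide, stood at 0.121 ± 0.0381 (adjusted p = 0.0678, limma), and Mpo, the peroxidase of neutrophils, at -0.0521 ± 0.0157 (adjusted p = 0.0548, limma). Among 12 genes of haem and iron handling 2 passed, both lower: the macrophage haemoglobin scavenger receptor Cd163 fell by 0.248 ± 0.0445 (adjusted p = 0.00153, limma) and the metallothionein Mt2 fell by 0.231 ± 0.0604 (adjusted p = 0.0233, limma). Cd163 is also a marker of macrophages, and of the 6 macrophage markers measured 3 were higher, 2 of them past the threshold, and 3 lower, with a mean above 0 on 7 of 8 arrays. Of 15 genes for selenoproteins or their synthesis 1 passed, the thyroid hormone deiodinase Dio2, which fell by 0.197 ± 0.0418 (adjusted p = 0.00562, limma). The group listed for copper delivery to the dismutases also held the fibulin Fbln5. In it 4 of 5 were higher, none past the threshold, and the copper importer Slc31a1 stood at 0.122 ± 0.0378 (adjusted p = 0.0635, limma).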

How the data were processed

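Each feature has 1 deposited value per array, a log ratio read here as log10. The authors worked in limma, per the submitters' processing notes. Its version, the background correction, the normalization and the log base were not stated, and without brightness or scan dates no filter on dim spots and no batch test was made. Precision is limited by the number of arrays, with 1 mouse per channel as the replicate. After 2 of 45220 features with missing data were dropped, features sharing a symbol were averaged into 30653 entries. GEO's platform annotation, possibly outdated, gave a single symbol to 33653 features, several to 56 and none to 11511. A linear model with an intercept for the dyes and 5 terms for the conditions (32 residual degrees of freedom) was fitted in limma 3.58.1 under R 4.3.3. Its two-sided p-values were adjusted by Benjamini and Hochberg's method across all entries of a comparison. The steps were tested on simulated data.

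Members and gene lists were chosen with earlier results of these data known. All members were named, with up to 3 genes most correlated with each and up to 3 genes with the smallest p of each list. Promoters of 8 of 10 members matched by symbol, and Sod3 and Hmox1 are named only. As alternatives, the dye term was dropped, arrays were scaled, centred or weighted, and the variance was moderated robustly. Features were also taken singly or by their largest SD, and entries below the 25th percentile of SD were dropped. Further fits blocked on the replicate number, took direct arrays alone, took the alveolar marker mean as a covariate, or left out each array. Averaging Sod1 spots by accession first, and leaving out the pair of arrays that correlated at 0.549 (day 3 against day 1), were added after seeing the data.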

Additional observations from a re-analysis of the deposited data

Results flagged for a closer look

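In 5 of 70 sets of 4 or more arrays, the highest or lowest array stood apart from the others by Dixon's criterion after the dye effect was removed, and chance alone flags about 5% of sets. For Gpx1 in day 3 minus hypoxia, the first array with hypoxia in Cy3 gave 0.320, where the others lay between -0.0428 and 0.0170. For Gpx1 in day 7 minus day 3, the second array with day 3 in Cy3 gave -0.646, where the others lay between -0.00252 and 0.0514. For Gpx2 in the same comparison, the second array with day 7 in Cy3 gave -0.140, where the others lay between -0.0158 and -0.00313. For Srxn1 in hypoxia minus normoxia, the third array with hypoxia in Cy5 gave -0.373, where the others lay between -0.108 and 0.0451. For Sod3 in day 14 minus day 7, the first array with day 14 in Cy3 gave -0.132, where the others lay between -0.0230 and -0.00283.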

How the results depend on the processing

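The count of the 10 genes past the threshold in hypoxia minus normoxia was 2. It was 1 (Gpx3) on direct arrays only and 0 with the alveolar marker mean as a covariate, and between 1 and 2 when each array was left out. With every feature as its own entry, 23 for the members, it was 3 genes, and the third was Sod1, which had 12 of these features. In that fit the RefSeq feature of Sod1 stood at 0.0861 ± 0.0154. The 11 features of the cDNA accession stood at 0.0178 to 0.0556, with SEs from 0.0314 to 0.0454. The calls over all 30653 entries moved from 1102 to 103 on direct arrays only, to 36 with the covariate and to 528 without the third array with hypoxia in Cy5. With single features 1455 were called, but out of 45218 features, so that count has another base. The cause of these changes was not tested. The direct fit had fewer arrays and also its own estimate of the spread. In all other comparisons the count of members was 0 under every alternative listed. Samples with the same replicate number did not deviate together on average (mean correlation of residuals -0.0183, beside -0.0231 for different numbers). That mean runs over all arrays of different groups, where opposite signs can cancel. Whether the numbers pair the mice was therefore not settled. With the replicate number as a block 2 members passed and 1091 entries were called, so no call of a member changed. Hmox1 was left out by the filter on low SD. The log base, the direction and the lack of brightness values limit all folds, signs and levels.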
